A study of Mus musculus with 6 samples.

Results

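Slc40a1 and Spic are the pair of iron recycling genes described here, 2 of the 5294 genes that the gene lists of the series hold between them. They were chosen by name, and their raw counts were followed in every tissue section whose gene list includes them. The data are single-molecule counts from Xenium, an imaging assay that decodes individual RNA molecules in a tissue section and assigns them to segmented cells. All 6 sections came from wild-type mice and were cut at 5 µm, and each condition is 1 section. Slc40a1 was read in all 6 sections: fetal liver at E13.5 and at E14.5, bone marrow of a mouse at postnatal day 8 (P8) and of a mouse aged 89 weeks, the spleen of an untreated adult, and the spleen of a mouse given phenylhydrazine (PHZ). PHZ destroys red blood cells and thereby causes hemolytic anemia. It was injected at 40 mg/kg, 2 times a day for 2 days, and the methods name both normal spleens and vehicle-injected controls. Spic was read in 4 sections, which shared a panel of 477 genes: E14.5 liver, P8 marrow and both spleens. The E13.5 liver and the 89-week marrow were read in a later run with a panel of 5050 genes that holds Slc40a1 but not Spic.

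Slc40a1 encodes ferroportin, the exporter that releases iron from cells into plasma. Spic encodes an ETS-family transcription factor that red pulp macrophages of the spleen need for their development. Macrophages of spleen, marrow and fetal liver engulf aged red cells or expelled erythroblast nuclei, break down heme and return the iron through ferroportin, and heme itself is known to induce both genes. C1qa, C1qb and C1qc encode the subunits of complement C1q and are transcribed mainly by tissue macrophages. Cells with at least 3 counts of these genes together are called C1q-positive below, and all remaining cells are called other cells. A C1q-positive cell is defined by this count and is not a proven macrophage, since a segmented cell can hold RNA of its neighbours.

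In the GRCm38.p6 annotation, Slc40a1 spans chromosome 1:45908070-45926532 and Spic spans chromosome 10:88675269-88683023, on the minus strand. The smaller panel read each gene with 8 probe sets, and the larger panel read Slc40a1 with 2, so that levels cannot be compared between panels or between the genes. C1qa, C1qb and C1qc had 7, 6 and 8 probe sets on the smaller panel and 5 each on the larger. The C1q threshold is therefore not equal between panels, and shares and folds of C1q-positive cells cannot be compared between them. The RefSeq table of promoters held an entry for Spic, the member with the larger difference between the spleens. Its 250 bases before the start, chr10:88683024-88683273 of GRCm38.p6, are shown for the gene strand, with the start of the gene following the last base.
Spic: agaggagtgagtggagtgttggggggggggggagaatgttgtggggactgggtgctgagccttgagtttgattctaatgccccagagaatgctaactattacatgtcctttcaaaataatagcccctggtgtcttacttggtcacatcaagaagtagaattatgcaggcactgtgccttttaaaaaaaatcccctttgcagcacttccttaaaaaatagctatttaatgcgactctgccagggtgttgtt
This window was searched on both strands for TGAGTCA, the AP-1 core that is part of the sites bound by BACH1 and NRF2. It was also searched for GAGGAA, a longer box around the ETS core, and for the GATA core AGATAA. The window held none of these searched sequences, hence it has no capitals. Among 32851 promoters of the same length, 4.46% held the first, 23.3% the second and 9.99% the third. The shorter core shared by ETS factors, with which GAGGAA ends, was not searched for. That shorter core occurs in the window on the opposite strand, so the window is not free of ETS cores.

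The sections held between 5285 (E13.5 liver) and 143810 (89-week marrow) cells and between 1384795 and 20952143 gene counts, with medians of 60 to 190 counts per cell. Hepatocyte genes made up 4.86% of the counts in E14.5 liver, and lymphoid genes 5.06% in the untreated spleen and 0.917% after PHZ. Erythroid genes (Klf1, Gata1, Slc4a1 and others) made up 34.1% in E14.5 liver, 18.2% in P8 marrow, 2.33% in the untreated spleen and 20.8% after PHZ. Between any 2 sections, 0 to 6 cell names were shared. With 1 section per condition no test between conditions was possible. Intervals below are exact 95% intervals and cover counting error only, not the spread between animals or sections.

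Both genes were highest in the untreated spleen when each section was scaled to counts per 1000000 gene counts (CPM). For Slc40a1 the level was 10523 CPM in E14.5 liver, 8627 CPM in P8 marrow, 23788 CPM in the untreated spleen and 19120 CPM in the PHZ-treated spleen. For Spic it was 794 CPM (interval 782 to 806), 929 CPM (906 to 953), 9593 CPM (9533 to 9653) and 3494 CPM (3460 to 3529) in the same order. The order of these sections from lowest to highest differed between the genes at its lower end, with P8 marrow lowest for Slc40a1 and E14.5 liver lowest for Spic. Per the paper, P8 marrow came from femurs. The P8 values cover the whole section, and any tissue outside the marrow was not separated. On the larger panel Slc40a1 stood at 664 CPM (621 to 708) in E13.5 liver and 698 CPM (684 to 713) in 89-week marrow, and these intervals overlapped. The untreated spleen stood 2.26-fold above E14.5 liver for Slc40a1 and 12.1-fold for Spic. Per cell in place of CPM, these folds were 1.21 and 6.46, because cells of the liver section held more counts. On that scale the PHZ-treated spleen had the highest Slc40a1 level, with 2.31 counts per cell against 2.27 in the untreated spleen, 1.88 in E14.5 liver and 1.06 in P8 marrow.

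Slc40a1 was found in 71.0% of the cells of E14.5 liver, 49.2% of P8 marrow, 56.3% of the untreated and 68.9% of the PHZ-treated spleen. Spic was found in 9.07%, 8.38%, 40.7% and 23.4%. In the larger-panel sections Slc40a1 was in 11.2% of the cells of E13.5 liver and 5.37% of those of 89-week marrow. Every count stood far above the negative control probes: the smallest margin was that of Spic in P8 marrow, whose total was 149.7 times that of the most frequent control probe of the section. Levels also varied between squares of 100 µm. In the untreated spleen the Slc40a1 level ran from 4342 CPM at the 10th percentile of 462 squares to 44265 CPM at the 90th, and in E14.5 liver only from 8204 to 12938 CPM over 727 squares. Spic ran from 3365 to 16670 CPM in the untreated and from 1140 to 7419 CPM in the PHZ-treated spleen.

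Both genes were enriched in C1q-positive cells in every section that read them. These cells made up 12.8% of the cells in E14.5 liver, 11.01% in P8 marrow, 36.0% in the untreated spleen, 35.1% in the PHZ-treated spleen, 5.70% in E13.5 liver and 2.83% in 89-week marrow. In E14.5 liver, Spic reached 4024 CPM in C1q-positive and 303 CPM in other cells, a 13.3-fold difference (interval 12.9 to 13.7). The fold for Spic was 5.39 (5.12 to 5.67) in P8 marrow, 3.59 (3.54 to 3.64) in the untreated spleen and 3.67 (3.59 to 3.75) in the PHZ-treated spleen. Slc40a1 was 2.81-fold higher in C1q-positive cells in E14.5 liver, 2.30-fold in P8 marrow, 4.39-fold in the untreated spleen and 2.44-fold in the PHZ-treated spleen. On the larger panel its fold was 10.2 (8.98 to 11.7) in E13.5 liver and 4.21 (3.99 to 4.44) in 89-week marrow. Against other cells over 20 µm from a C1q-positive centre, the fold of Slc40a1 was 4.06 in P8 marrow and 9.54 in the untreated spleen, and that of Spic 21.2 in E14.5 liver, 10.4 in P8 marrow and 6.33 in the PHZ-treated spleen. With 10 or more C1q counts as the threshold, Slc40a1 was 16.9 in E13.5 and 4.56 in E14.5 liver, and Spic 32.1 in E14.5 liver, 11.7 in P8 marrow and 6.01 in the PHZ-treated spleen. The remaining folds moved by less than 1.5 times under these settings. The far cells of the P8 section can include femur tissue outside the marrow.

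Thus all 10 values passed a 2-fold difference, whereas 15.2% of the 289 genes with at least 1000 counts did so in E14.5 liver, 11.2% in P8 marrow, 12.1% in the untreated spleen and 13.7% in the PHZ-treated spleen. Among genes with at least 100 counts on the larger panel, 6.81% did so in E13.5 liver and 5.51% in 89-week marrow. By this fold Spic ranked 4th of 289 genes in E14.5 liver, behind Timd4, Cd5l and Clec4f, which mark resident macrophages, and 6th of 250 in P8 marrow. In the spleens it ranked 14th of 290 and 13th of 270. Slc40a1 ranked 35th in E14.5 liver, 23rd in P8 marrow, 7th in the untreated spleen and 26th in the PHZ-treated spleen. The genes ahead of it in the untreated spleen were Mrc1, Cd163, Cd5l, Kcnj16, Rhd and Epor, the first pair being scavenger receptors of macrophages and the last pair erythroid genes.

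**Figure D1:**
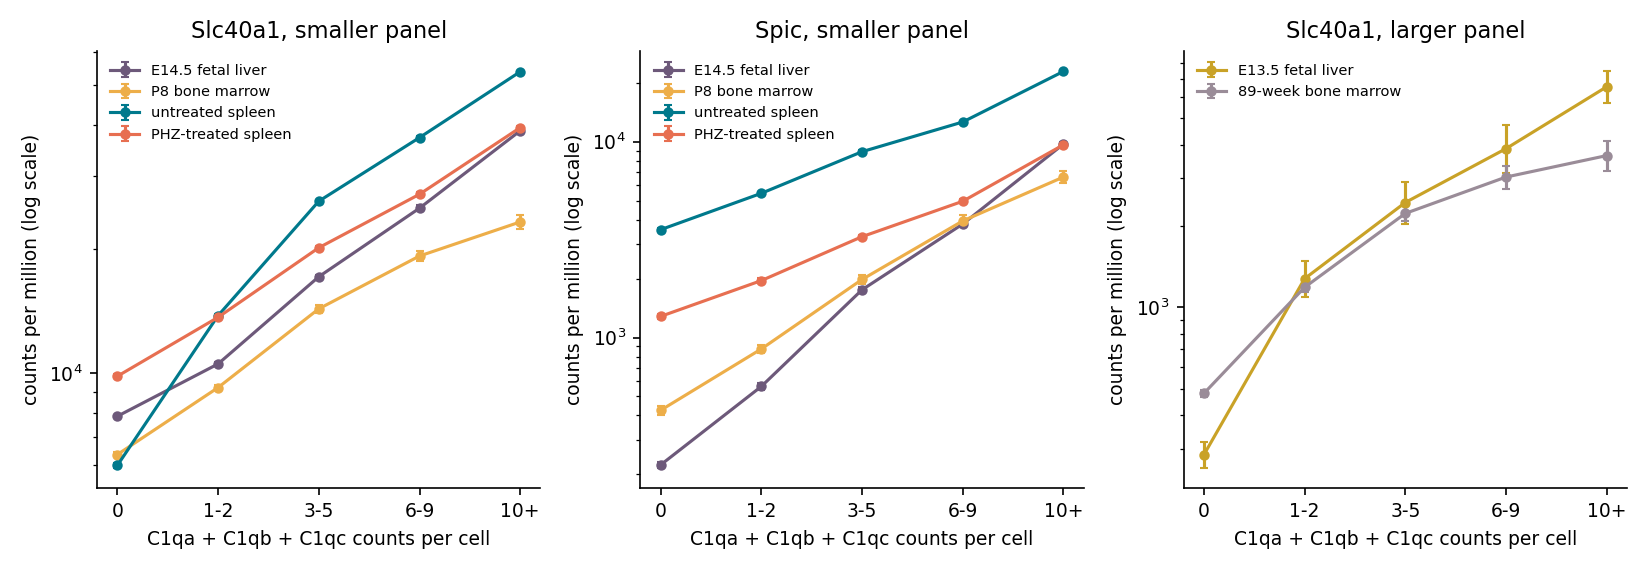
Level of each gene (counts per 1000000, log scale, with exact 95% Poisson intervals) in cells grouped by their summed counts of C1qa, C1qb and C1qc, for the sections of each panel. Both genes increase from left to right in all sections; in cells with 10 or more C1q counts Spic reaches 22849 CPM in the untreated spleen and 9642 CPM after PHZ.

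The levels of both genes went up with each step in C1q counts. Slc40a1 in the untreated spleen was 5976 CPM in cells with 0 C1q counts, 13793 CPM with 1 to 2, 26128 CPM with 3 to 5, 37274 CPM with 6 to 9 and 53850 CPM with 10 or more. Spic in E14.5 liver went from 224 CPM over 563, 1753 and 3799 to 9727 CPM over the same groups. In cells with 10 or more C1q counts, E14.5 liver and the PHZ-treated spleen were close to each other for each gene (38723 and 39409 CPM for Slc40a1, 9727 and 9642 CPM for Spic), and the untreated spleen stood above both. In cells with 0 C1q counts, Spic was in 3.71% of cells in E14.5 liver, 4.25% in P8 marrow, 20.9% in the untreated spleen and 9.71% after PHZ.

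C1q-positive cells held 66.9% of all Spic counts in E14.5 liver, 48.4% in P8 marrow, 75.98% in the untreated spleen and 74.4% after PHZ. For Slc40a1 the shares were 29.97%, 28.6%, 79.5% and 66.0%. In E14.5 liver and P8 marrow most Slc40a1 counts therefore lay in cells below the C1q threshold, whereas both spleens held most of them in C1q-positive cells. Among other cells, 67.5% held Slc40a1 in E14.5 liver and 37.9% in the untreated spleen. Median depth of the C1q-positive and other cells was 171 and 167 counts in E14.5 liver, but 110 and 72 in the untreated and 135 and 89 in the PHZ-treated spleen.

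Part of the counts in other cells lay close to C1q-positive cells. In other cells of E14.5 liver, Spic went from 1307 CPM within 5 µm of the nearest C1q-positive centre to 215 CPM at 10 to 20 µm, and Slc40a1 from 13481 to 7951 CPM. Slc40a1 then stayed near that level and was still 7596 CPM at 20 to 40 µm, where 64.4% of cells held it. Spic in this liver was 184 CPM at 20 to 40 µm and 334 CPM (interval 254 to 432) beyond 40 µm, the latter in only 942 cells. In the untreated spleen Slc40a1 went from 17464 CPM within 5 µm to 4120 CPM at 20 to 40 µm. Spic there went from 6348 to 3334 CPM at 10 to 20 µm and was 4163 CPM at 20 to 40 µm and 4658 CPM beyond, so that it went down and then up with distance. In the PHZ-treated spleen Spic went from 3314 to 933 CPM and Slc40a1 from 15136 to 9916 CPM between the nearest distance and 20 to 40 µm; beyond 40 µm Slc40a1 was 12493 CPM, in only 414 cells. The part of misassigned RNA in these levels was not tested.

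Slc40a1 was also found far from C1q-positive cells. Cells with 0 C1q counts and no C1q-positive centre within 20 µm were thinned to 50 counts each, and the genes found more often beside Slc40a1 than without it were ranked. In E14.5 liver the highest were Kit (13.8% of 5715 cells with Slc40a1 against 9.75% of the rest), the stem cell factor receptor, then Cd44 and Podxl. In P8 marrow they were Epor (13.98% against 5.61%), the erythropoietin receptor, and Gata1 (11.1% against 4.64%), an erythroid transcription factor, followed by C5ar1 and Csf3r, both receptors of myeloid cells. In the untreated spleen they were Siglec1 (30.7% against 10.1%), an adhesion receptor of marginal zone macrophages, and Htra3. Siglec1 (23.7% against 10.9%) was also first for Spic there. In the PHZ-treated spleen they were Sdc1 (4.04% against 2.35%), a proteoglycan of plasma cells, Cd5l (3.34% against 1.99%) and Spic itself (4.46% against 2.92%), over 718 cells with Slc40a1. In 89-week marrow Hmox1, which encodes the enzyme that opens the heme ring, was first (8.37% against 2.87% of cells). These ranks were formed after the distances had been seen and are descriptions. In P8 marrow the far cells can include femur tissue outside the marrow, which was not separated. Beyond 40 µm, 9303 other cells of that section had a median of 68 counts, and 13.7% held Slc40a1.

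Slc40a1 and Spic occurred together. In C1q-positive cells of the untreated spleen, 94.2% of the cells with Spic held Slc40a1, against 78.3% of those without, an odds ratio of 4.45. The odds ratio in C1q-positive cells was 2.74 in E14.5 liver, 3.73 in P8 marrow and 2.35 in the PHZ-treated spleen. In other cells it was 1.85, 2.76, 2.27 and 1.67 in E14.5 liver, P8 marrow, untreated and PHZ-treated spleen. Deeper cells hold more of every gene, and cells with Spic were deeper (median 119 against 94 counts in the untreated spleen). With every C1q-positive cell thinned to 50 counts, the odds ratio was 2.45, 2.71, 2.58 and 1.76 in the 4 sections, lowest in the PHZ-treated spleen. C1q-positive cells with Spic also held more Slc40a1 counts per cell than those without: 5.75 against 3.61 in E14.5 liver, 4.04 against 2.21 in P8 marrow, 6.13 against 2.71 in the untreated and 5.76 against 3.27 in the PHZ-treated spleen.

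**Figure D2:**
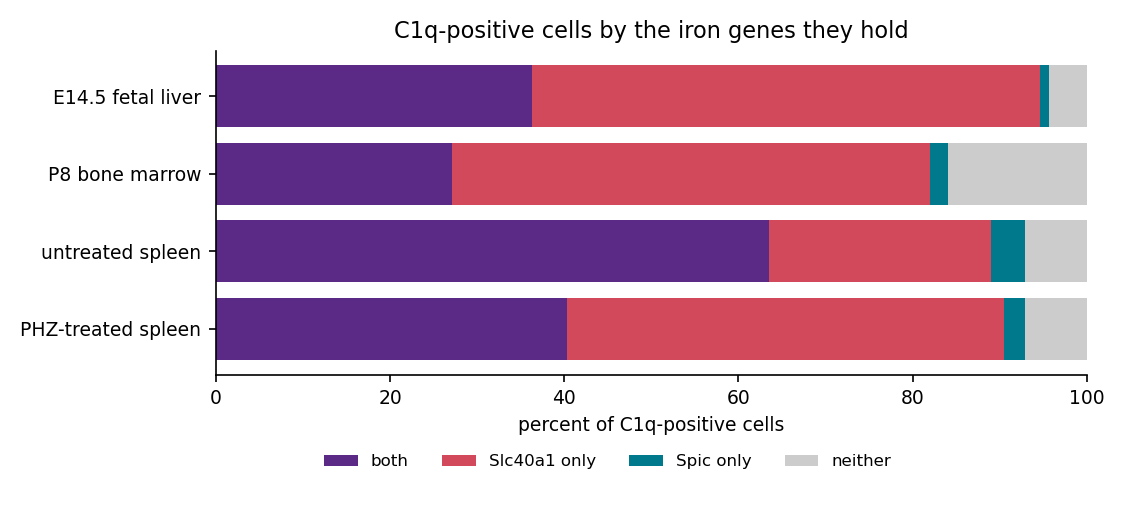
Percent of the C1q-positive cells of 4 sections (horizontal bars, summing to 100) in which both iron genes, 1 of them or neither was counted. Cells with Spic alone are the smallest class in each section, and cells with both make up 63.5% in the untreated spleen and 40.4% after PHZ.

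Cells with both genes made up 36.3% of the C1q-positive cells in E14.5 liver, 27.1% in P8 marrow, 63.5% in the untreated spleen and 40.4% in the PHZ-treated spleen. Slc40a1 without Spic was the largest class in E14.5 liver (58.4%), P8 marrow (54.9%) and the PHZ-treated spleen (50.1%). Spic without Slc40a1 was rare, from 0.981% in E14.5 liver to 3.95% in the untreated spleen. Cells with both held the most C1q counts in each section (10.6 per cell in the untreated spleen, against 4.99 in cells with neither) and were larger than cells with neither in the spleens (median area 46.0 against 35.5 µm² untreated, 73.4 against 49.0 µm² after PHZ), but smaller in P8 marrow (49.6 against 68.4 µm²). They also held a larger share of the other macrophage genes. A fixed list of 20 resident macrophage genes, which includes Adgre1, Vcam1, Timd4 and Mrc1, reached 172544 CPM in cells with both and 103042 CPM in cells with neither in the untreated spleen. In the PHZ-treated spleen the values were 143079 and 80129 CPM. Between cells with both and cells with neither, the monocyte list ran the other way in both spleens and E14.5 liver. It reached 56997 CPM in cells with both and 71091 CPM in cells with neither in the untreated spleen, 35160 and 40614 CPM after PHZ, and 14700 and 16781 CPM in E14.5 liver. In P8 marrow it was 21614 and 21125 CPM. Cells with Slc40a1 alone held less of this list than cells with both in E14.5 liver (9550 CPM), P8 marrow (19576 CPM) and the PHZ-treated spleen (23897 CPM). They held more in the untreated spleen (61420 CPM). Cells with Spic alone held the most in the untreated spleen (76773 CPM), the PHZ-treated spleen (55964 CPM) and P8 marrow (27873 CPM), but 11759 CPM in E14.5 liver.

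Genes were ranked, in thinned C1q-positive cells, by the ratio of their share among cells with Spic to that among cells without. In E14.5 liver the highest were Nr1h3 (7.18% of cells with Spic against 2.51% without), which encodes the sterol receptor LXRα, then Il18, Csf3r, Tlr4 and Siglec1. P8 marrow gave Cd5l (5.30% against 1.78%), a secreted scavenger protein, then Il18, Timd4, Siglec1 and Aif1. The untreated spleen gave Kcnj16 (14.6% against 7.37%), a potassium channel gene, then Cd163, Pcolce2, Nr1h3 and Mrc1. The PHZ-treated spleen gave Siglec1 (5.74% against 2.51%) and Timd4 (7.03% against 3.35%), receptors of resident macrophages, then Nr1h3, Il18 and Hap1. Genes in under 2% of the thinned cells were not ranked, and Cd163, the receptor for hemoglobin bound to haptoglobin, was among these in the PHZ-treated spleen.

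Across 16 points (4 groups of C1q counts in each of the 4 sections with both genes), the genes whose log2 level was most like that of Spic were Il18 (r = 0.98), Aif1 (r = 0.98), Maf (r = 0.97), Clec4a3 (r = 0.96) and Lst1 (r = 0.95). Those most like Slc40a1 were Mrc1 (r = 0.91), Cd5l (r = 0.82), Vcam1 (r = 0.81), Spic itself (r = 0.80) and Nr1h3 (r = 0.78). The points share sections and the grouping by C1q, so these coefficients are descriptions over 427 genes.

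Of 10 other genes of iron and heme handling on the smaller panel, 1 passed a 2-fold difference in E14.5 liver, where 3 genes were at 0.5-fold or lower, and 2 passed in each of the other sections, where the shares over all ranked genes were 15.2% in E14.5 liver, 11.2% in P8 marrow, 12.1% in untreated and 13.7% in PHZ-treated spleen. These counts are near the shares over all genes. On the larger panel 3 of 11 passed in E13.5 liver and 4 of 13 in 89-week marrow, against 6.81% and 5.51% of all ranked genes. The median fold was 0.89, 1.09, 1.14 and 0.70 in E14.5 liver, P8 marrow, untreated and PHZ-treated spleen. Cd163 passed in all 4 (3.05-fold, 6.53-fold, 7.35-fold and 3.76-fold). Trf, which encodes transferrin, the iron carrier of plasma, passed in P8 marrow (2.55-fold), untreated spleen (3.14-fold) and PHZ-treated spleen (2.35-fold). Tfrc, the transferrin receptor through which erythroblasts take up iron, stood at 0.94-fold, 1.07-fold, 0.96-fold and 0.71-fold. Fech, which encodes the last enzyme of heme synthesis, stood at 0.92-fold, 1.10-fold, 1.46-fold and 0.66-fold. On the larger panel Hmox1 was 17.7-fold higher in C1q-positive cells of E13.5 liver and 4.71-fold in 89-week marrow, Slc11a1, an iron transporter of phagosomes, 19.7-fold and 4.18-fold, and Lrp1, the receptor for heme bound to hemopexin, 3.72-fold and 3.13-fold. In the same sections Bach1, the repressor that heme inactivates, was 1.56-fold and 1.06-fold, and Ireb2, an iron sensor, 1.02-fold and 0.80-fold.

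Of 20 resident macrophage genes, 17 passed a 2-fold difference in E14.5 liver (15.2% of all ranked genes), 16 in P8 marrow (11.2%) and 18 in the PHZ-treated spleen (13.7%). In the untreated spleen 8 of 20 passed (12.1% of all ranked genes) and 1 was at 0.5-fold or lower. Among the genes short of 2-fold there were Siglec1 (0.70-fold), Timd4 (0.71-fold) and Marco (0.88-fold). After PHZ these stood at 7.06-fold, 7.06-fold and 5.69-fold. Other cells of the untreated spleen thus also hold macrophage genes, and the classes of the spleens are not alike. In E13.5 liver 10 of 10 passed on the larger panel (6.81%) and 14 of 14 in 89-week marrow (5.51%). Of the 11 monocyte genes 6, 2, 3 and 1 passed in E14.5 liver, P8 marrow, PHZ-treated and untreated spleen, and the counts in P8 marrow and untreated spleen are near the shares over all genes.

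The PHZ-treated spleen held less Spic than the untreated spleen in every group of C1q counts. Over the whole section Spic was 9593 CPM untreated and 3494 CPM treated, 0.36-fold (interval 0.36 to 0.37). In C1q-positive cells it was 15561 and 5880 CPM, 0.38-fold, and in other cells 4334 and 1603 CPM, 0.37-fold. The share of C1q-positive cells with Spic was 67.5% untreated and 42.8% treated. Many genes stood lower in CPM in this comparison. Of 343 genes with at least 1000 counts in both spleens together, 48.1% were at least 1.5-fold lower in the whole section, 22.4% were at least 1.5-fold higher and the median gene stood at 0.68-fold; in C1q-positive cells 45.1% of 275 genes were lower and 27.3% higher, with a median of 0.72-fold. Spic was lower than the median gene by a factor of 0.54 in the whole section and of 0.52 in C1q-positive cells, and 22.4% and 19.6% of the genes had a still lower fold. Counted per cell, Spic was 0.46-fold in the whole section, 0.46-fold in C1q-positive cells and 0.48-fold in other cells, and the median gene 0.86-fold in the whole section.

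Slc40a1 followed another course. Its whole-section value was 0.80-fold (23788 CPM untreated, 19120 CPM treated) but 1.02-fold per cell, so its direction depends on the scale, and relative to the median gene it was higher by a factor of 1.19. This factor differed between cell classes. It was 0.98 in C1q-positive cells, 1.97 in other cells, 2.37 with 0 C1q counts and 0.75 with 10 or more. The fold of Slc40a1 itself differed as well. In C1q-positive cells Slc40a1 was 40349 and 28522 CPM, 0.71-fold, or 0.86-fold per cell. Neither passed 1.5-fold. In other cells it was 9194 and 11669 CPM, 1.27-fold, or 1.66-fold per cell. Cells with 0 C1q counts had 5976 CPM untreated and 9833 CPM treated, 1.65-fold (interval 1.62 to 1.67), against 25.8% of 264 genes that rose at least 1.5-fold in these cells, and 2.07-fold per cell. Slc40a1 was found in 27.6% of these cells in the untreated and 49.4% in the treated spleen. The spleens differed in their erythroid and lymphoid shares, so these cells are not matched. Values by marker list are given below. Lower genes made up 52.9% of 308 in other cells and 48.1% of 264 in cells with 0 C1q counts. They made up 55.5% with 1 to 2 counts, 55.1% with 3 to 5, 45.5% with 6 to 9 and 35.2% with 10 or more, and higher genes 23.6%, 24.7%, 28.9% and 31.5%. Slc40a1 in these groups, 0.99-fold with 1 to 2 C1q counts, 0.77-fold with 3 to 5, 0.73-fold with 6 to 9 and 0.73-fold with 10 or more, stepped down and then stayed level, while Spic lay between 0.36-fold and 0.42-fold in all groups. From 0 C1q counts up, the median gene stood at 0.69-fold, 0.60-fold, 0.60-fold, 0.72-fold and 0.97-fold. Relative to the median gene Spic was lower by factors of 0.52, 0.60, 0.61, 0.55 and 0.43.

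**Figure D3:**
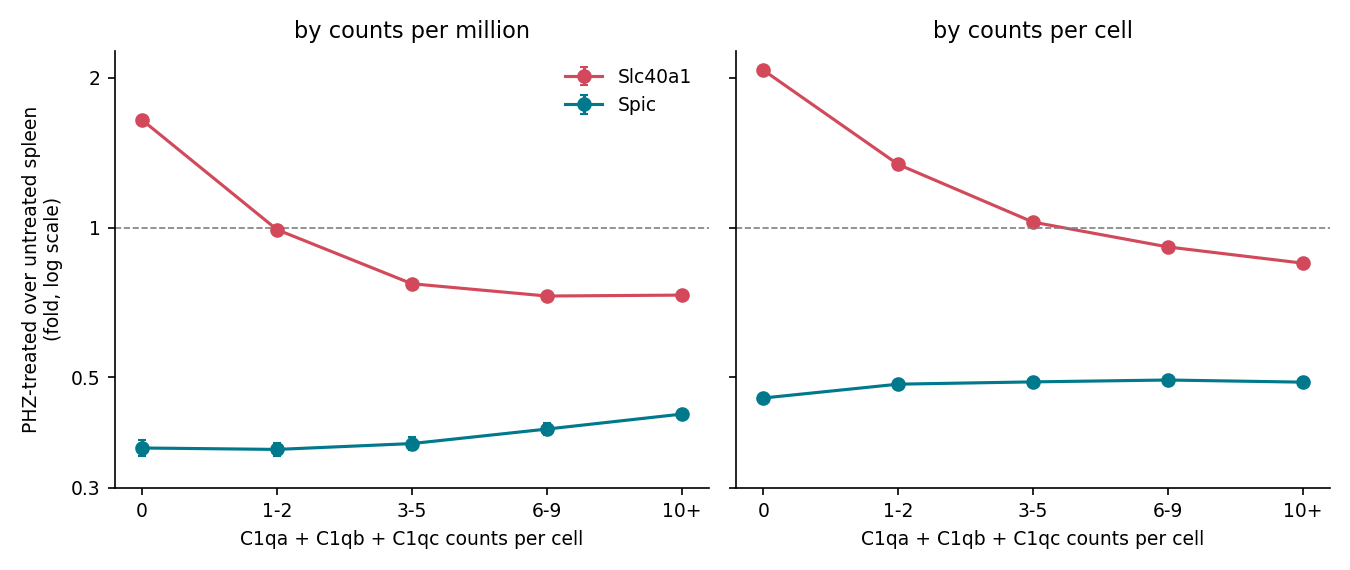
PHZ-treated over untreated spleen for both genes (fold on a log scale; the dashed line marks 1) in cells grouped by C1q counts, by counts per 1000000 with exact 95% intervals (left) and by counts per cell (right). The Spic values are flat near 0.4 and 0.5, whereas the Slc40a1 values decline from 1.65 to 0.73 and from 2.07 to 0.85.

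The ratio of the 2 genes does not depend on how a section is scaled. Per Spic count there were 2.48 Slc40a1 counts in the untreated spleen and 5.47 after PHZ, and in C1q-positive cells 2.59 and 4.85. E14.5 liver and P8 marrow had 13.2 and 9.29 over the whole section and 5.94 and 5.49 in C1q-positive cells. Among C1q-positive cells the PHZ-treated spleen was thus nearer to E14.5 liver and P8 marrow than to the untreated spleen in this ratio. In other cells the ratio was 28.0 in E14.5 liver, 12.9 in P8 marrow, 2.12 untreated and 7.28 after PHZ. Erythroid genes made up 276836, 227449, 33452 and 119980 CPM of C1q-positive cells with both genes, in the same order. The part of RNA from other cells in this ratio was not tested. The probe sets of the 4 sections are the same, so that the ratio can be set side by side within this panel.

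Among the other iron and heme genes, 6 of 9 with at least 1000 counts were at least 1.5-fold higher in the whole PHZ-treated spleen (22.4% of all genes) and 2 at least 1.5-fold lower (48.1%). The median was 2.57-fold, against 0.68-fold over all 343 genes. Among those that rose were Fech (6.07-fold), Slc25a37 (3.99-fold), which encodes the mitochondrial iron importer mitoferrin-1, Tfrc (3.19-fold), Isca1 (2.57-fold), an iron-sulfur cluster assembly gene, and Hp (2.00-fold), which encodes haptoglobin. Fech and Slc25a37 are also on the erythroid list, whose share of the counts was 2.33% untreated and 20.8% treated. Cd163 (0.20-fold) and Trf (0.23-fold) were lower, and Cp, which encodes the ferroxidase ceruloplasmin, was 1.26-fold. In C1q-positive cells 6 were again higher (27.3% of all genes) and 2 lower (45.1%), but with Cp (1.54-fold) past the fold and Hp (1.26-fold) short of it. Cd163 was 0.18-fold and Trf 0.22-fold there.

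Of 19 resident macrophage genes in C1q-positive cells, 8 were at least 1.5-fold lower, 2 at least 1.5-fold higher and 9 between, where 45.1% of all genes were lower and 27.3% higher, so that the count of lower genes was near that share. Their median was 0.72-fold; the same gene, Maf, was the median of all 275 genes. Among the lower genes were Timd4 (0.33-fold), Adgre1 (0.37-fold), Aif1 (0.40-fold), Vcam1 (0.46-fold) and Mrc1 (0.56-fold). Marco, a scavenger receptor, was 2.11-fold and Folr2, a folate receptor, 1.62-fold. Cd5l was 0.87-fold and Cd68 1.35-fold. Of 11 monocyte genes 7 were lower (45.1% of all genes), among them Plbd1 (0.23-fold) and Ccr2 (0.25-fold), and F13a1 was higher (1.97-fold). Over the whole section, 11 of the 19 resident macrophage genes were lower (48.1% of all genes) and 0 higher (22.4%). Marco was 1.06-fold there and 0.33-fold in other cells. The C1q threshold does not pick matched cells in the 2 spleens. Marco in C1q-positive over other cells was 0.88-fold untreated and 5.69-fold after PHZ.

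Each cell was also assigned to the marker list whose share of its counts stood highest over the share in its section, without C1q, Slc40a1 and Spic. These classes are ranges and not cell types: in the spleens, 0.432% to 18.0% of the cells of a class had a second list almost as high as the first. Cells led by the macrophage list held the highest level of Slc40a1 in all 6 sections and of Spic in the 4 that read it. For Slc40a1 these were 61120 CPM in the untreated spleen, 45879 CPM in the PHZ-treated spleen, 28630 CPM in E14.5 liver and 21282 CPM in P8 marrow. Spic in the same cells was 27932, 10902, 5337 and 4344 CPM. On the larger panel, macrophage-led cells held 5286 CPM of Slc40a1 in E13.5 liver and 3901 CPM in 89-week marrow, next to 593 and 789 CPM in erythroid-led cells.

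**Figure D4:**
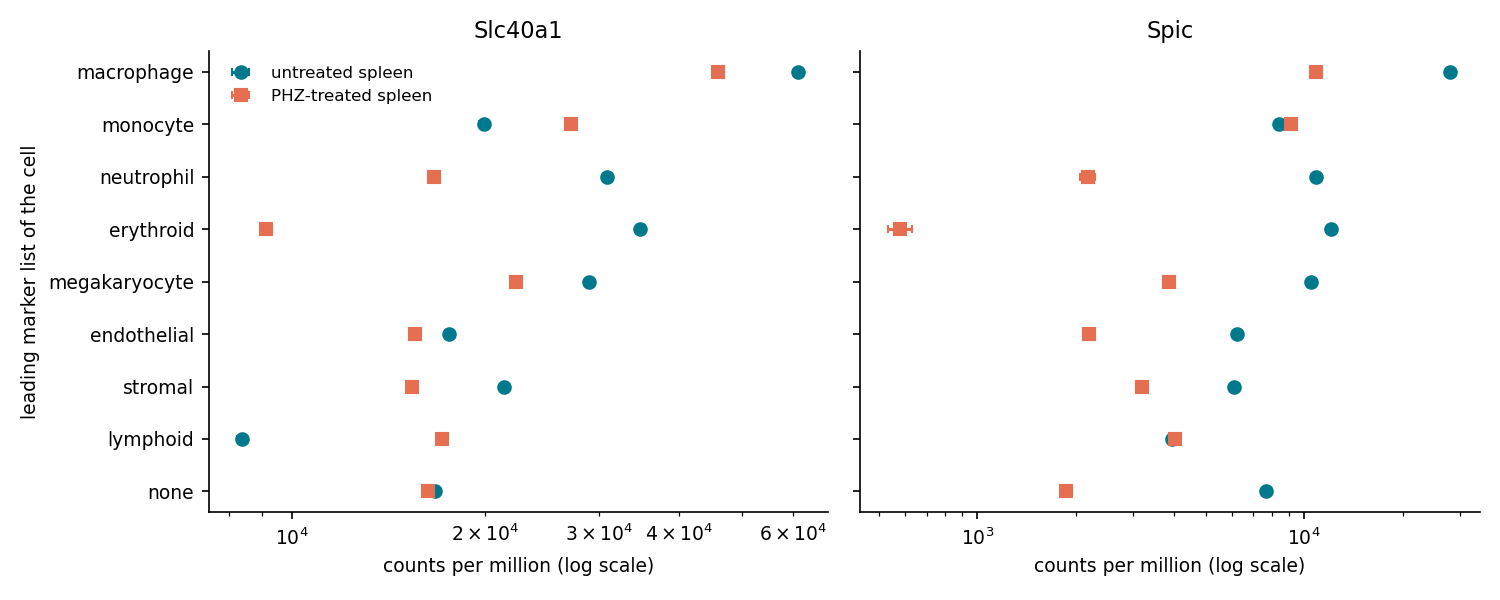
Levels of both genes (counts per 1000000, log scale, exact 95% intervals mostly smaller than the symbols) in cells of the 2 spleens grouped by the marker list that leads in them. Macrophage-led cells are highest in both spleens; the classes are chosen by thresholds that differ between the spleens, so that a distance between the 2 symbols of a class does not compare the same cells.

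The classes are not matched between the spleens, because a list leads only at 2 or more times its share in the same section, and these shares differed. The lymphoid list made up 5.06% of the counts untreated and 0.917% treated, the monocyte list 2.88% and 1.13%, the macrophage list without C1q 5.15% and 3.07%, and the erythroid list 2.33% and 20.8%. The levels below are therefore a description of differently chosen cells in each spleen. In macrophage-led cells Spic was 0.39-fold, in erythroid-led cells 0.05-fold (12120 against 581 CPM), in neutrophil-led cells 0.20-fold and in endothelial-led cells 0.35-fold. Monocyte-led cells had 8368 CPM untreated and 9144 CPM treated, 1.09-fold (interval 1.06 to 1.13), and lymphoid-led cells 3940 and 4042 CPM, 1.03-fold (0.98 to 1.07). Monocyte-led cells held 7.33% of all Spic counts in the untreated and 17.6% in the treated spleen, while they made up 7.96% and 6.47% of the cells. They carried 3.61 C1q counts per cell untreated and 7.36 treated. Restricted to monocyte-led cells with 0 C1q counts, Spic was 3524 CPM in 3052 cells and 5319 CPM in 1176 cells, 1.51-fold (1.36 to 1.68), and Slc40a1 2.26-fold. Erythroid-led cells of the untreated spleen carried 5.46 C1q counts per cell, against 0.709 in the treated spleen, so that these classes differ in how much macrophage RNA they hold. In erythroid-led cells with 0 C1q counts, Slc40a1 was 8079 and 8006 CPM (0.99-fold) but 0.539 and 0.874 counts per cell, while Spic was 4429 and 449 CPM. With 0 C1q counts Slc40a1 was also below 1 in neutrophil-led (0.82-fold), stromal-led (0.83-fold) and hepatocyte-led cells (0.92-fold). It was above 1 in megakaryocyte-led (1.14-fold), macrophage-led (1.39-fold), endothelial-led (1.48-fold) and lymphoid-led cells (2.03-fold). Cells led by no list had 2.41-fold.

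The level in C1q-positive cells also followed the position in the spleen. Squares of 100 µm with at least 20 cells were ranked within each spleen by the share of their counts in lymphoid genes and split into 5 equal groups. From the least to the most lymphoid group, C1q counts went from 58605 to 18935 CPM untreated, but from 18276 to 46584 CPM after PHZ. The groups are therefore not read as red or white pulp. In the untreated spleen Slc40a1 per C1q-positive cell was 6.61, 5.84, 4.71, 3.92 and 2.03 counts from the least to the most lymphoid group, and Spic 2.41, 2.28, 1.81, 1.58 and 0.895 counts. Both went down at each step except that in CPM the second group was highest. In the PHZ-treated spleen Slc40a1 was 4.31, 4.27, 4.84, 4.64 and 3.98 counts per cell with no steady course, but in CPM it went up at each step, from 24489 to 34288. Spic went up, with 0.678, 0.767, 0.919, 0.995 and 1.01 counts.

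**Figure D5:**
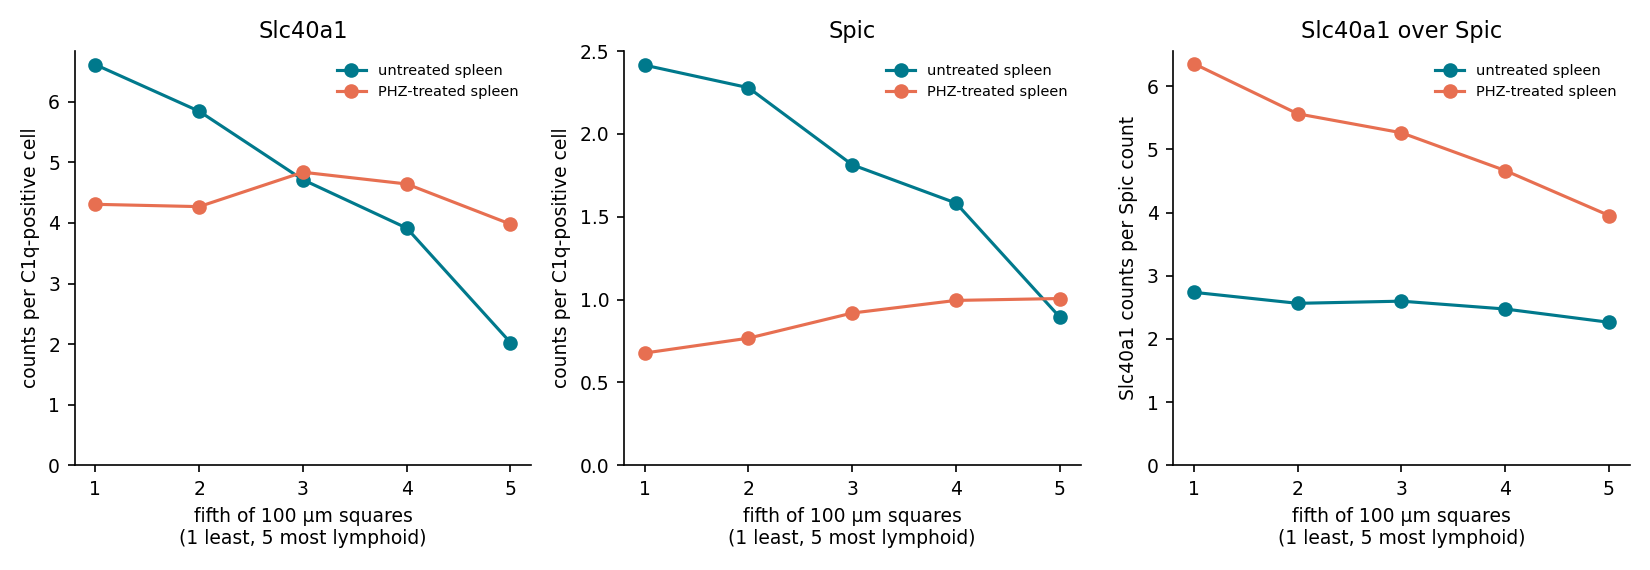
Slc40a1 and Spic counts per C1q-positive cell (left and middle) and Slc40a1 counts per Spic count in these cells (right) in 5 equal groups of 100 µm squares, ranked within each spleen by their lymphoid share. Spic declines from 2.41 to 0.895 counts in the untreated and increases from 0.678 to 1.01 counts in the PHZ-treated spleen, so that the spleens meet in the most lymphoid group.

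For Spic the spleens differed most where lymphoid genes were scarce. In the least lymphoid group Spic in C1q-positive cells was 16222 CPM untreated and 3852 CPM treated, and in the most lymphoid group 8258 and 8670 CPM. For Slc40a1 the difference turned its direction instead, with 44427 CPM untreated and 24489 CPM treated in the least lymphoid group and 18701 and 34288 CPM in the most lymphoid. The most lymphoid group had 2.26 Slc40a1 counts per Spic count untreated and 3.95 treated, the least lymphoid group 2.74 and 6.36. The groups are not matched between spleens, since lymphoid genes made up 2.09% to 9.04% of the counts in the groups of the untreated and 0.117% to 3.24% in those of the treated spleen. Erythroid genes moved with them and made up 26.5% of the counts of C1q-positive cells in the least lymphoid group of the treated spleen and 2.94% in the most lymphoid, against 4.78% and 1.07% untreated. Their part in the course of the iron genes was not tested. Within 20 µm of C1q-positive cells, erythroid-led cells (here with a lower threshold on the share of a list, since the usual threshold left few such cells in E14.5 liver) made up 12.2% of the neighbours of cells with Spic and 7.86% of those without in the untreated spleen. In the PHZ-treated spleen the values were 19.2% and 25.3%. For Slc40a1 they were 11.6% beside cells with it and 4.39% beside cells without it untreated, and 23.3% and 17.8% after PHZ. Over all cells, 8.11% were erythroid-led untreated and 29.7% treated, again by a threshold relative to each section. For Spic, P8 marrow had 38.4% and 36.5%, and E14.5 liver 24.0% and 25.6%.

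At the level of single molecules, Spic lay closer to C1q transcripts than Slc40a1 did in fetal liver and marrow. In E14.5 liver 83.3% of the Spic transcripts had a C1q transcript within 5 µm, against 54.6% for Slc40a1, 41.0% for Slc4a1, the red cell anion exchanger, 36.0% for Klf1, an erythroid transcription factor, and 41.8% for Kdr, an endothelial receptor. P8 marrow had 76.03% for Spic, 62.9% for Slc40a1, 57.2% for Slc4a1 and 57.2% for Klf1. In the spleens C1q transcripts were dense. The untreated spleen had 92.1% for Spic and 94.9% for Slc40a1, beside 94.5% for Slc4a1 and 71.4% for Cd3e, a T cell gene. After PHZ the shares were 90.1% for Spic, 85.2% for Slc40a1, 66.1% for Slc4a1 and 74.5% for Cd3e.

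The 2 transcripts also differed in their place within spleen cells. Over the nucleus lay 46.8% of the Slc40a1 and 54.4% of the Spic transcripts assigned to cells in the untreated spleen, and 40.7% and 50.6% in the PHZ-treated spleen, where all gene transcripts together had 58.9% and 50.96%. In E14.5 liver the shares were 56.3% and 54.7%, against 57.2% for all gene transcripts. P8 marrow had 54.7% and 55.9%, against 48.9% for all gene transcripts. Of C1q transcripts, 43.5% lay over a nucleus in the untreated spleen and 33.0% after PHZ, below the shares of the 7 single genes compared in each spleen. Outside any cell lay few transcripts, with 94.5% to 98.9% of Slc40a1 and Spic transcripts assigned to a cell in these 4 sections.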

How the data were processed

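Raw molecule counts of genes per cell were read from the deposited Xenium matrices of 6 sections, 1 per condition. Per the file headers, the authors' instrument software decoded the molecules, kept those with a quality score of at least 20 and assigned them to cells, by expanding nuclei on the smaller panel. On that panel the deposited tables of single transcripts, with a quality score for each molecule, gave the same counts per cell as the matrices. The genome build of the probes is not given in the sources used here.

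Levels were computed as counts per 1000000 gene counts (CPM) and as counts per cell, with Python 3.11.15, numpy 2.4.6, scipy 1.17.1 and pandas 2.3.3, and drawn with matplotlib 3.10.9. Exact Poisson, binomial and conditional intervals are at 95%. No test between conditions was made. In their place, called genes are those past 1.5-fold between spleens or 2-fold between cell classes, among genes with at least 1000 counts (100 on the larger panel). Between cell classes, genes of the fixed lists were counted from 100 counts on in both panels. Thinning drew 50 counts from each cell without replacement and left out shallower cells; doublets were not removed. The members, the gene lists and the markers were chosen with earlier results of these data known. Named genes were the members, genes of the fixed lists, and the genes most like a member or with the highest ratio of their shares with and without Spic. Genes found beside Slc40a1 far from C1q-positive cells were added after values were seen. The steps were tested on simulated data. Alternatives changed the scaling, the depth, the C1q threshold, the part of the cell and the quality score. Values of 1 gene of the lists are not reported here, though it is counted in the lists.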

Additional observations from a re-analysis of the deposited data

Results flagged for a closer look

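In 4 comparisons the values moved in opposite directions in the groups set side by side. With 1 section per condition, none of these differences was tested. Slc40a1 in the PHZ-treated over the untreated spleen was 1.65-fold in cells with 0 C1q counts and 0.707-fold in C1q-positive cells. The cells with 0 C1q counts are not matched between the spleens. Spic over the same spleens was 1.09-fold in monocyte-led cells and 0.390-fold in macrophage-led cells. These classes are set relative to each spleen's own list shares and so hold differently chosen cells: monocyte-led cells carried 3.61 C1q counts per cell untreated and 7.36 treated. In C1q-positive cells, the level of Slc40a1 in the most over the least lymphoid group of squares was 0.421-fold in the untreated and 1.40-fold in the treated spleen in CPM, but 0.306-fold and 0.924-fold per cell, where the directions were no longer opposite. For Spic the values were 0.509-fold and 2.25-fold in CPM, and 0.370-fold and 1.49-fold per cell.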

How the results depend on the processing

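The enrichment in C1q-positive cells stayed past 2-fold for each member and section under the 5 alternatives tried (8 values over nuclei and at a quality score of 30, 10 otherwise). The folds ran from 3.22 to 32.1 at 10 or more C1q counts, from 2.36 to 14.2 thinned, from 2.84 to 21.2 against cells over 20 µm away, from 2.09 to 12.7 over nuclei and from 2.32 to 13.2 at the stricter quality score. Between spleens, Slc40a1 in the whole section turned from 0.804-fold to 1.02-fold per cell and 1.04-fold with erythroid genes and Hbb-bt left out of the total, an alternative chosen after seeing the data, and was 0.834-fold without Hbb-bt and 0.871-fold thinned. In the same order (per cell, without erythroid genes and Hbb-bt, without Hbb-bt, thinned) Slc40a1 was 0.864, 0.839, 0.724 and 0.741-fold in C1q-positive cells and 1.66, 1.77, 1.33 and 1.31-fold in other cells. Spic was 0.461, 0.472, 0.378 and 0.3995-fold in the whole section, 0.462, 0.449, 0.387 and 0.404-fold in C1q-positive cells and 0.485, 0.517, 0.388 and 0.404-fold in other cells. At 10 or more C1q counts Slc40a1 was 0.732-fold and Spic 0.422-fold. The co-detection odds ratio moved to 2.71 in P8 marrow, 2.58 in the untreated spleen and 1.76 after PHZ when thinned, and pooled over 10 groups of cells of like depth to 3.71 and 1.87 in these spleens. The untreated spleen over E14.5 liver was 1.82-fold for Slc40a1 and 9.72-fold for Spic over genes shared by both panels, and 1.21-fold and 6.46-fold per cell. A value was called moved when it left the interval of the main setting. Among the values of the main results in this section, 33 moved, 2 turned direction and 16 did not move. Among levels by leading list, C1q folds of single sections and other single values, 63 moved and 29 did not. The cause was not tested. No paired analysis was possible because each condition has 1 section.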
